A study of Homo sapiens with 18 samples.

Results

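QKI binding to RNA was compared between beating cardiomyocytes at day 8 and cardiac progenitors at day 4 of differentiation, from 3 IP libraries at each day. These 6 libraries were chosen by their labelled day, out of 9 IP libraries and 18 samples in all. The cells were HUES6, an established human embryonic stem cell line, and both days shared the same protocol. Differentiation was begun with 1.5 uM CHIR, which activates Wnt signalling, and 1.5 ng/mL BMP4, and was continued with 100 nM C59, a Wnt inhibitor. Cells of the later day were collected when beating appeared, at day 7 to 8. Both days used unmodified cells and an antibody to QKI, and the 3 libraries of day 0, taken from pluripotent cells, serve below only as a reference. Whether libraries of 1 day stem from separate cultures is not stated in the labels, so p-values measure only the spread between these libraries, which may be technical. The files used here hold peaks and no RNA levels, so the labelled cell types were not checked against marker genes, and more RNA of a gene cannot be told apart from more binding to it.

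QKI belongs to the STAR proteins, which bind RNA. It binds as a dimer to ACUAA-like sequences, mostly in the introns and 3′ ends of transcripts, and acts on alternative splicing, circular RNA formation and RNA stability. In muscle and heart it is known as a regulator of the splicing of contractile and cytoskeletal genes. In eCLIP, ultraviolet light links the protein to RNA in living cells, the linked fragments are recovered with the antibody, and the reads are set against a size-matched input that was not immunoprecipitated. Genes named below were assigned from general knowledge of where genes lie on hg19, not from the deposited files. Of 121 names, 121 had the same chromosome in RefSeq for GRCh38.p14, 98 of the 98 with a listed strand had the same strand, and 106 spanned a length within 10% of the RefSeq gene. Coordinates are those of hg19, as in the files.

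Peaks are called passing where the authors' values gave at least 4-fold enrichment over input and a p no higher than 0.001. The day 4 libraries held 3030, 7775 and 3999 passing peaks and the day 8 libraries 6320, 3726 and 10966. The days overlapped, with a ratio of means, day 8 over day 4, of 1.42 (two-sided exact permutation p = 0.6, adjusted 0.75 over 10 measures; 0.1 is the smallest p that 3 against 3 allows). Listed clusters of any fold ran the other way, with 63319, 70003 and 99552 at day 4 and 52462, 61230 and 62897 at day 8. Every day 8 library had fewer clusters than every day 4 library (exact permutation p = 0.1, adjusted 0.667). On average, positions were shared more within days than between them by a small margin. The Jaccard index over passing nucleotides averaged 0.218 within the 2 days and 0.172 between them, and 0.307 against 0.207 when each library was reduced to its 3030 strongest peaks (one-sided exact permutation p = 0.1 in both cases, the smallest of 10 splits). The difference of 0.0458 was 0.0262 without day 8 replicate 1 and 0.0344 without day 8 replicate 2 (exact permutation p = 0.3 for each), and 0.0705 without day 4 replicate 2. Single pairs overlapped. The index was 0.125 between day 4 replicates 1 and 2 and 0.255 between day 4 replicate 2 and day 8 replicate 3. With equal peak numbers these 2 pairs had 0.207 and 0.273. Because list length differed within each day, loci and chromosomes are compared below by their share of the library's passing peaks, and counts of regions and list overlaps are also given with equal peak numbers. Counts of single reproducible peaks and footprints are not adjusted for list length.

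**Figure D1:**
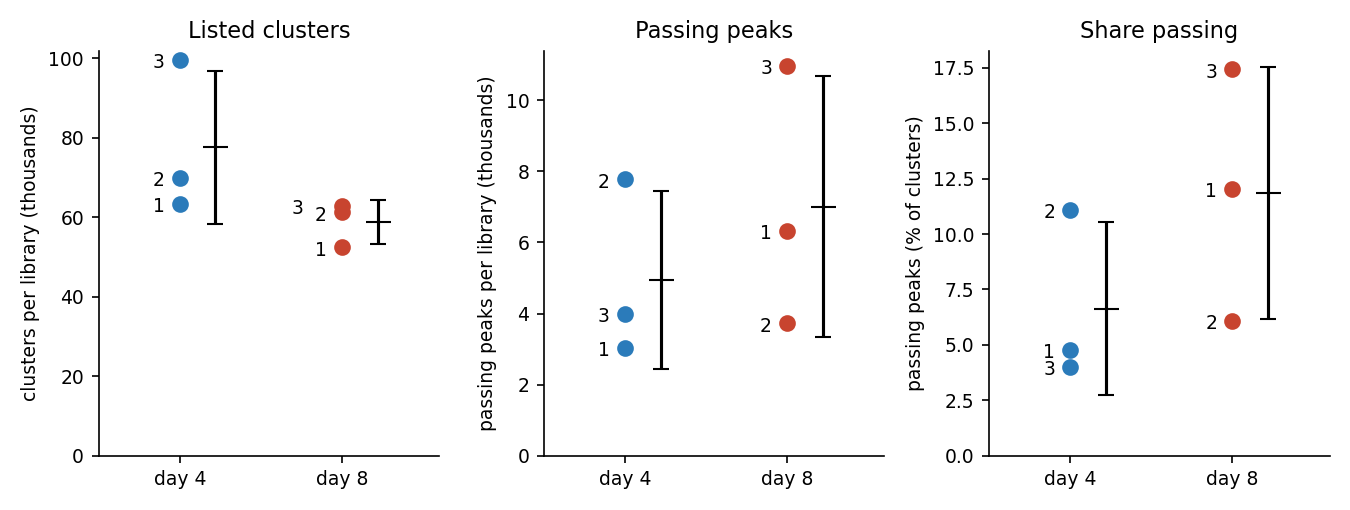
Listed clusters, passing peaks and the share of clusters that passed in each of the 6 libraries, with the replicate number beside each point and bars for the mean ± SD (n = 3 a day). Passing peaks overlap between the days, while the 3 day 8 libraries have fewer clusters than the 3 day 4 libraries.

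The reproducible lists, in which the authors merged the peaks that recurred across the libraries of a day, held 947 peaks at day 4 and 1576 at day 8. Most day 4 sites were still bound at day 8, while fewer of the day 8 sites had been bound at day 4. Counting any shared nucleotide on 1 strand, 67.7% of the day 4 list met a day 8 peak (Wilson 95% interval 64.6% to 70.6%), and 42.3% of the day 8 list met a day 4 peak (39.8% to 44.7%). These intervals treat peaks as independent and hold no spread between libraries. With 947 peaks from each list the shares were 49.5% and 49.7% and no longer differed. In the single libraries, 74.0% of the day 4 reproducible peaks overlapped a passing peak in 3 of 3 day 8 libraries and 27 of them (2.85%) in none. Of the day 8 peaks, 45.2% overlapped a passing peak in 3 of 3 day 4 libraries and 328 (20.8%) in none, and 196 of these 328 had no cluster of any fold at day 4.

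Offsets could be measured only where stretches of both days overlapped. Merging the lists on each strand left 461 footprints held by both days, 776 found only at day 8 and 272 only at day 4. At the 461 shared footprints the middles of the day 4 and day 8 stretches lay a median of 7.5 nt apart, 60.3% within 10 nt and 86.1% within 25 nt. The day 8 stretch lay upstream at 225 and downstream at 224 of them. Reproducible peaks had a median width of 66 nt at day 4 and 68 nt at day 8, and since only overlapping stretches count as shared, their width bounds the offsets.

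Positions bound in every library of 1 day and in no library of the other were mostly day 8 positions. The passing peaks of the 6 libraries merged into 17751 regions, of which 526 (2.96%) were bound in 3 of 3 day 8 and 0 of 3 day 4 libraries and 61 (0.344%) the other way. With the 3030 strongest peaks of each library by p, the counts were 352 (4.63%) and 139 (1.83%) of 7598 regions, a narrower gap in the same direction. With the 3030 strongest by the authors' fold, they were 188 (2.13%) and 79 (0.893%) of 8847. When no cluster of any fold was allowed on the other day, 283 and 14 regions remained. Leaving out a library also loosens the rule, to 2 of 2 or 0 of 2, and every count rose. The day 4 count was 367 without day 4 replicate 1, 124 without day 4 replicate 2, 121 without day 4 replicate 3 and 163 without day 8 replicate 3. The day 8 count was 805 without day 8 replicate 1, 1168 without day 8 replicate 2 and 789 without day 4 replicate 2. Of the 526 day 8 regions, 60.5% passed in 0 of 3 day 0 libraries and 18.1% in 3 of 3, near the 57.5% and 22.6% of all 17751 regions. Of the 61 day 4 regions, 16 passed in 0 of 3 and 36 in 3 of 3.

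Peaks lay in groups along genes. Reproducible peaks within 20 kb on the same strand were joined into loci, which gave 896 loci, 340 with peaks at both days, 371 with peaks only at day 8 and 185 only at day 4. A minimum of 5 reproducible peaks left 116 loci, which were tested for the share of each library's passing peaks that they held, by limma across all 116 with Benjamini-Hochberg adjustment. At day 8 the share was higher at 16 loci (13.8%) and lower at 1 (0.862%), and 99 did not pass. The median locus shifted by -0.11 on the log2 scale, so a locus at 0 stood slightly above the rest. All 17 kept their direction in every one of the 14 settings that tested them (6 of the 17 had the 10 reproducible peaks that 1 setting required), and all 17 passed with equal peak numbers, where 38 loci were higher and 3 lower. Day 8 and day 4 shares did not overlap at any of the 17. Over the 116 loci, day 8 shares lay above all day 4 shares at 24 (20.7%) and below all of them at 3 (2.59%).

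Which loci were tested bears on this balance, because 75 of the 116 had more reproducible peaks at day 8 and 24 more at day 4. Of the 16 higher loci, 14 had no reproducible peak at day 4, so they entered the test through day 8 peaks alone. The p-values given below for such loci carry this selection. Loci of the day 0 list, chosen without day 4 or day 8 peaks, gave 8 higher (2.61%) and 12 lower (3.91%) of 307, with a median shift of -0.48. Centring each library on its median locus gave 22 higher and 9 lower of the 116. The fit estimated an infinite prior, so each locus took its variance from a trend over all loci and not from its own libraries. Without day 4 replicate 1, 7 loci were higher and none was lower (limma, 1 lower at an unadjusted p under 0.05), without day 4 replicate 3 there were 9, without day 8 replicate 1 there were 5, and without day 8 replicate 2 there were 7 higher and 3 lower.

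**Figure D2:**
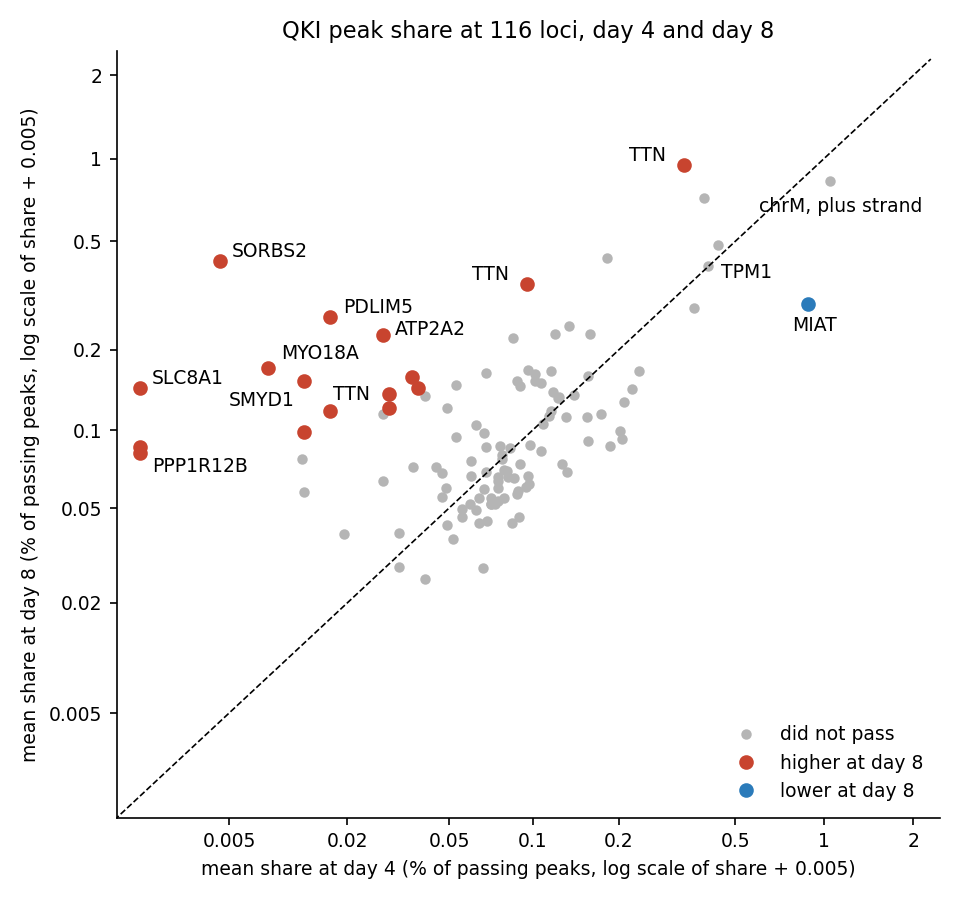
Mean share of passing peaks at day 4 and day 8 for the 116 loci, in percent on log axes after adding 0.005, with the dashed line at equal shares. The 16 loci higher at day 8 lie above the line, from SLC8A1 at 0 to TTN at 0.333% on the day 4 axis, and MIAT lies below it.

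Loci of sarcomere and Z-disc genes were among those that rose. The clearest was at SORBS2, an adaptor protein of Z-discs and stress fibres (chromosome 4, 186562496 to 186606115, minus strand). It held 0, 1 and 0 passing peaks in the day 4 libraries and 26, 22 and 29 in the day 8 libraries. Clusters of any fold went from 0, 1 and 3 to 45, 52 and 50, so the day 4 libraries had almost no signal there below the threshold either. The summed share was 54.3 times as high at day 8 (exact counting interval 9.45 to 2170.25), and the log2 difference was 4.69 ± 0.60 (SE, limma adjusted p = 6.38e-12). With 0 reproducible peaks at day 4 and 19 at day 8, the locus was tested because of its day 8 peaks, and its p carries that choice. Counting intervals, here and below, treat peaks as independent and leave out the spread between libraries. The day 0 libraries held 13, 15 and 12 peaks there, so day 4 was the low point of the 3 days. The call held without any single library (limma adjusted p at most 2.02e-06).

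PDLIM5 encodes a PDZ and LIM domain protein of the Z-disc. Its locus (chromosome 4, 95502992 to 95541250, plus strand) held 0, 2 and 1 passing peaks at day 4 and 17, 12 and 22 at day 8. The share rose from 0.0169% ± 0.0146 to 0.264% ± 0.0609 (SD, n = 3), an increase of 11.98 times on summed peaks (exact counting interval 3.87 to 60.0). The log2 difference was 3.30 ± 0.60 (limma adjusted p = 4.15e-06). SORBS2 and PDLIM5 were the only tested loci that also passed with a pseudocount of 2 in place of 0.5.

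TTN, which encodes the giant sarcomere protein titin, carried 3 loci on the minus strand of chromosome 2, and all 3 were higher at day 8. The longest (179506621 to 179558861) held 8, 30 and 14 peaks at day 4 and 58, 46 and 76 at day 8. It rose from 0.333% ± 0.0626 to 0.948% ± 0.272 of passing peaks (SD, n = 3), and ranked first of the 116 by share at day 8. The log2 difference was 1.45 ± 0.50 (limma adjusted p = 0.0329); this locus was named after its values were seen. The locus at 179585006 to 179623624 went from 1, 8 and 6 peaks to 21, 17 and 28 (log2 difference 1.85 ± 0.58, adjusted p = 0.0157 by limma). The locus at 179653814 to 179669759 went from 0, 3 and 2 to 6, 8 and 11 (1.91 ± 0.61, adjusted p = 0.0172 by limma). These 3 neighbours belong to 1 gene and are not independent. The first lost its call without day 4 replicate 1 or 3 or day 8 replicate 1 or 2 (limma adjusted p up to 0.242). The second lost it without day 4 replicate 1 or day 8 replicate 1 (limma adjusted p = 0.365 and 0.185), and the third without day 4 replicate 1, day 8 replicate 1 or day 8 replicate 2 (0.379, 0.139 and 0.0831). The second and the third also lost it by covered nucleotides (limma adjusted p = 0.0756 for each), without scaling (0.083 and 0.098), with a pseudocount of 2 (0.147 and 0.521) and with the replicate block (0.214 and 0.0928).

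The TTN peaks of day 4 and day 8 shared a centre. Along the 52.2 kb locus, counted from its 5′ end on the bound strand, the middle peak lay at 27.7, 28.0 and 28.4 kb in the day 4 libraries and at 28.9, 28.9 and 28.1 kb in the day 8 libraries. The first peak lay 0.0225 to 0.041 kb from the 5′ end in the day 8 libraries, against 16.1 to 26.4 kb at day 4. The last lay at 52.2 kb in all 3 day 8 libraries and in day 4 replicates 2 and 3, and at 29.3 kb in day 4 replicate 1. The locus was drawn around its reproducible peaks, 38 of day 8 and 4 of day 4, and its ends are not those of the gene. A day 8 peak at an end is thus partly set by how the locus was drawn. Of 28 regions bound in any day 4 library, 27 were bound in a day 8 library as well, and 10 regions were bound in 3 of 3 day 8 and 0 of 3 day 4 libraries. Over the 16 higher loci, 208 of 209 regions were bound at day 8, so the 27 of 28 says little about kept positions. At the 8 regions with a cluster in all 6 libraries, the authors' centred log2 fold over input was higher at day 8 by a median of 0.68 (range -0.59 to 1.81). Passing peaks rest on this same fold, so the median is a description of a locus chosen for more day 8 peaks.

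**Figure D3:**
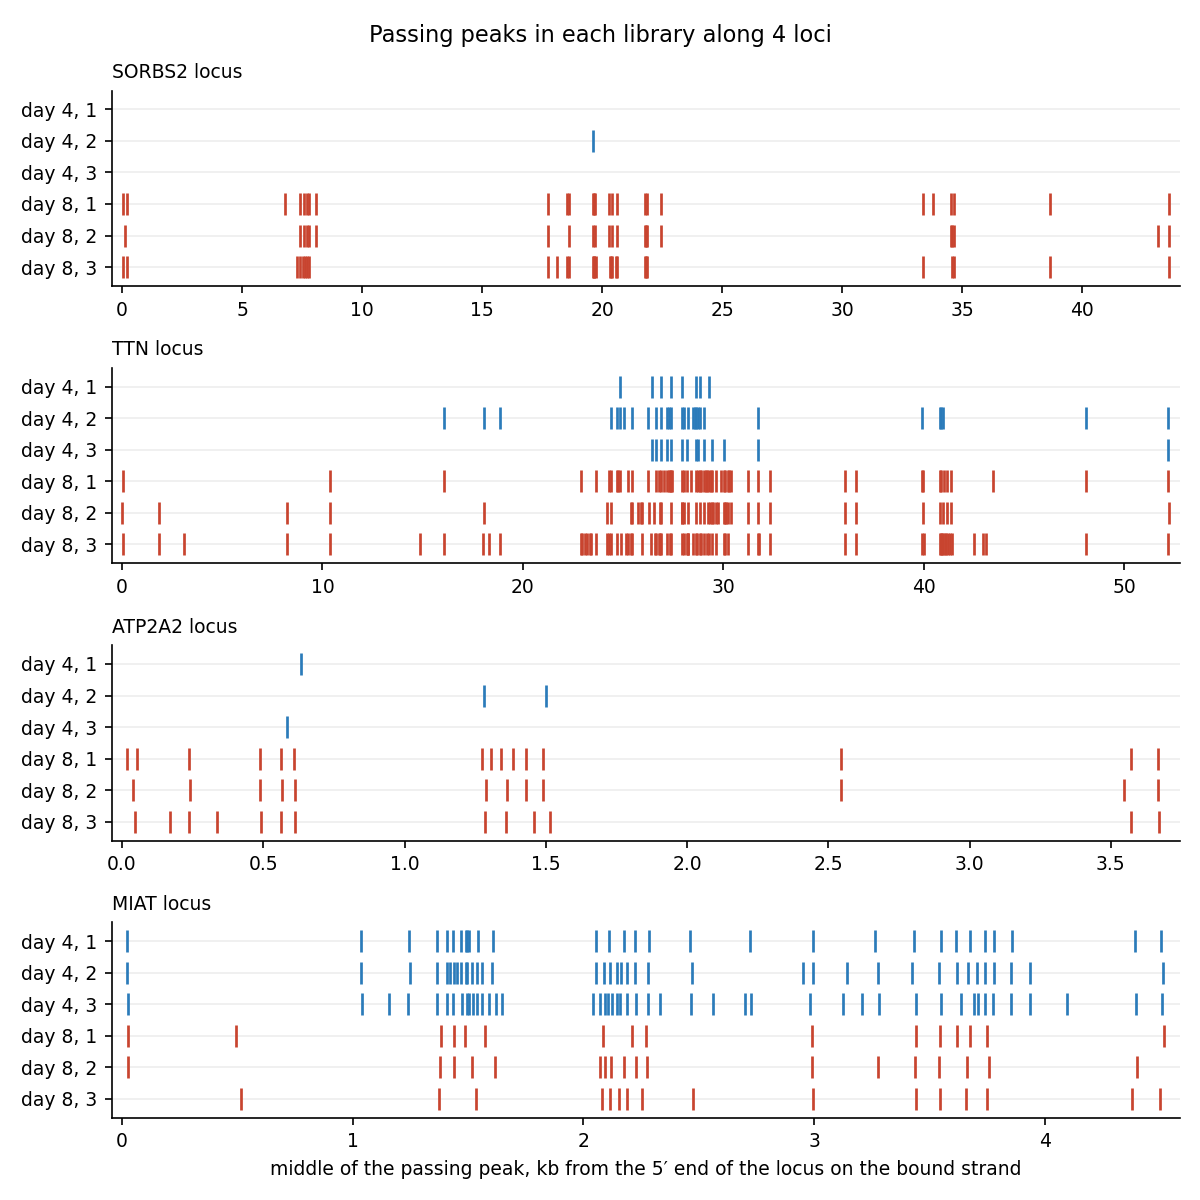
Middles of the passing peaks along 4 loci, in kb from the 5′ end of the locus on the bound strand, with 1 line per library (blue for day 4, red for day 8). SORBS2 has 1 peak in the day 4 libraries, the TTN locus is filled at both days around its middle, and the day 4 peaks of MIAT are denser than those of day 8.

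Other loci of contractile and cytoskeletal regulators also rose. MYO18A, an unconventional myosin (chromosome 17, 27443482 to 27460549, minus strand), went from 0, 2 and 0 peaks to 11, 10 and 8 (log2 difference 3.08 ± 0.65, limma adjusted p = 7.5e-05). SMYD1, a muscle methyltransferase needed for sarcomere assembly (chromosome 2, 88392693 to 88398329, plus strand), went from 0, 3 and 0 to 8, 9 and 10 (2.82 ± 0.64, limma adjusted p = 0.000314). Both kept their calls when any single library was left out, as did SORBS2, PDLIM5 and SLC8A1, and none of the other loci among the 17 did. PPP1R12B, a subunit of myosin phosphatase, held 0 peaks in each day 4 library and 7, 4 and 3 at day 8 in a stretch of 461 nt (chromosome 1, 202497326 to 202497786, plus strand). Its share was at least 3.29-fold higher (limma adjusted p = 0.0128), with the day 4 floor set at 3 peaks over the group, and it lost its call without day 8 replicate 1 or 2 or day 4 replicate 1 or 3 (limma adjusted p up to 0.275). MICAL3, which oxidises actin, went from 0, 2 and 1 to 7, 7 and 6 peaks (chromosome 22, 18275393 to 18285201, minus strand; 2.05 ± 0.64, limma adjusted p = 0.0157). Its call was lost without any of the same 4 libraries (limma adjusted p up to 0.185). A second MICAL3 locus, 18355720 to 18362522, had 7, 7 and 9 peaks at day 4 and 28, 20 and 35 at day 8, shares that did not overlap, but it did not pass (1.27 ± 0.56, limma adjusted p = 0.133).

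Among the named loci that rose, 2 belonged to calcium transporters. SLC8A1 encodes the sodium-calcium exchanger NCX1 of heart muscle. Its locus (chromosome 2, 40397511 to 40405456, minus strand) had 0 peaks and 0 clusters in every day 4 library and 8, 8 and 10 peaks at day 8. The share was at least 6.11-fold higher (limma adjusted p = 2.01e-05), and 6 of its 7 regions were bound in 3 of 3 day 8 libraries. The day 0 libraries held no passing peak there. ATP2A2 encodes the calcium pump SERCA2, which refills the sarcoplasmic reticulum. Its locus (chromosome 12, 110784194 to 110787900, plus strand) went from 1, 2 and 1 to 15, 12 and 13 peaks, 7.05 times by summed share (exact counting interval 2.55 to 27.1). The log2 difference was 2.47 ± 0.60 (limma adjusted p = 0.000939), and the adjusted p was 0.0504 without day 8 replicate 1. At 3 ATP2A2 regions with a cluster in all 6 libraries, the centred log2 fold was 0.80 to 2.06 higher at day 8. Passing peaks are defined by this same fold, so these values are not separate evidence for the call.

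The remaining gains were smaller or had no clear link to muscle. LTBP1, a latent TGF-beta binding protein, carried 2 short loci on chromosome 2, plus strand. The first, 33475762 to 33476303, had 0 peaks in each day 4 library and 5 in each day 8 library, at least 3.52-fold (limma adjusted p = 0.00501), and the call ended without day 8 replicate 1 or 2 (0.144 and 0.116). The second, 33569417 to 33570428, went from 0, 3 and 0 to 5, 6 and 6 (2.20 ± 0.69, limma adjusted p = 0.0157), and kept its call only without day 4 replicate 2 or day 8 replicate 3. PALM2AKAP2, INTS6L and an unnamed locus on chromosome 8 (23630585, plus strand), named after their values were seen, passed with limma adjusted p from 0.0364 to 0.0401 and held 5 to 7 peaks over the day 4 libraries and 21 to 27 over the day 8 libraries. Each lost its call without at least 4 of the 6 libraries.

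**Figure D4:**
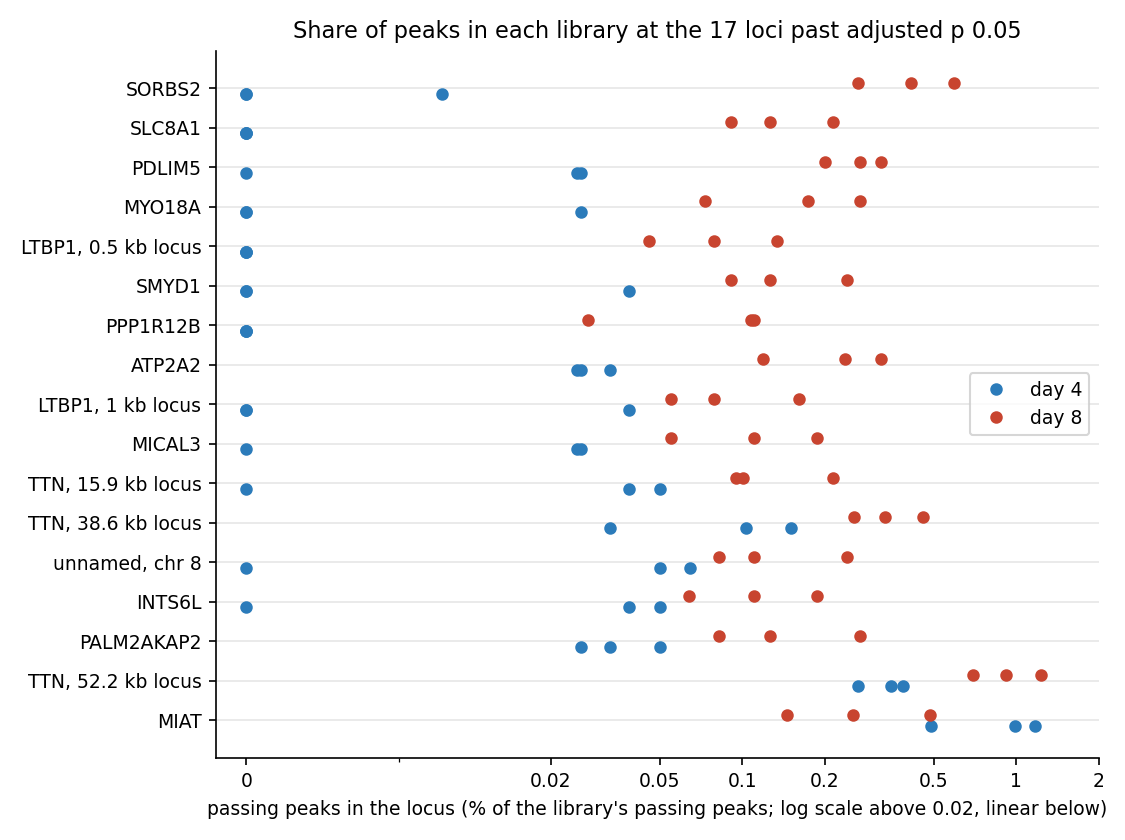
Share of each library's passing peaks at the 17 loci that passed, in percent, with 3 points per day (log axis above 0.02, linear below). Day 8 points lie to the right of all day 4 points at 16 loci and to their left at MIAT.

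Because the 16 loci were chosen for more day 8 peaks, the counts of their positions are a description only. The 16 loci held 209 regions, 62 of them bound in at least 1 day 4 library and 208 in at least 1 day 8 library. Of the 62 day 4 regions, 61 were among those of day 8. That is 98.4% of the day 4 regions and 29.3% of the day 8 regions. Since nearly all regions were bound at day 8, the first share says little about whether day 4 positions were kept. In all, 64 regions were bound in 3 of 3 day 8 and 0 of 3 day 4 libraries, and none the other way. Of the 16 loci, 14 lacked a reproducible peak at day 4, and at 8 no day 0 library had a passing peak.

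MIAT was the only tested locus that passed as lower at day 8. It is a long noncoding RNA, named for an association with myocardial infarction, and it carries many copies of the QKI recognition sequence. Its locus (chromosome 22, 27065924 to 27070462, plus strand) held 30, 38 and 47 passing peaks at day 4 and 16, 18 and 16 at day 8. Every day 8 library was below every day 4 library, in number and in share, and the day 0 libraries held 227 to 235 peaks. The share went from 0.885% ± 0.355 to 0.294% ± 0.172 (SD, n = 3), a log2 difference of -1.64 ± 0.51 (limma adjusted p = 0.0157). The ratio of summed shares was 0.306 (exact counting interval 0.215 to 0.431, which leaves out the spread between libraries). Of the 21 regions in the locus, 20 were bound at day 4 and 11 at day 8, with 10 bound at both days. Since nearly all regions were bound at day 4, this overlap says little about whether positions were kept. At the 5 regions with a cluster in all 6 libraries the median difference of the centred log2 fold was 0.18 (range -1.97 to 0.33), a median close to 0 at the shared positions. The call was lost without day 4 replicate 1 or 3 or day 8 replicate 1 or 3 (limma adjusted p from 0.150 to 0.185). It was also lost by covered nucleotides (limma adjusted p = 0.207), with a pseudocount of 2 (0.0594) and with the replicate block (0.142).

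Several loci rich in peaks at both days did not pass. The plus strand of mitochondrial DNA (619 to 15947) held the most reproducible peaks, 45 at day 4 and 66 at day 8, and 42, 49 and 45 against 63, 28 and 82 passing peaks (log2 difference -0.27 ± 0.46, limma adjusted p = 0.784). TPM1, the tropomyosin of cardiac thin filaments (chromosome 15, 63353314 to 63362078, plus strand), held 12, 21 and 22 peaks at day 4 and 21, 23 and 30 at day 8 (-0.03 ± 0.53, adjusted p = 0.969 by limma). COL13A1, a transmembrane collagen (chromosome 10, 71665774 to 71676846, plus strand), held 9, 16 and 27 against 33, 43 and 53 peaks (0.91 ± 0.51, adjusted p = 0.307 by limma), and it passed with equal peak numbers (1.57, adjusted p = 0.0441 by limma). QKI's own transcript, at 163970877 on the plus strand of chromosome 6, held 3, 10 and 7 peaks at day 4 and 15, 13 and 16 at day 8 (0.73 ± 0.58, adjusted p = 0.614 by limma). The fit recovered 61.5% of simulated 4-fold changes and 6.74% of 2-fold changes among 116 loci, so most 2-fold changes would be missed. Among the 99 loci that did not pass, 87 differed by less than 1 on the log2 scale.

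A wider set of loci, added after the data were examined, was built from all passing peaks of the 6 libraries joined within 5 kb, with at least 12 peaks in total. Of 455 such loci, 61 were higher at day 8 (13.4%) and 11 lower (2.42%), with a median shift of -0.08. Of the 72, 52 held fewer than 5 reproducible peaks and so mostly lay outside the first set. Among the higher loci, 28 had no passing peak at day 4, and among the lower, 1 had none at day 8. Such loci reached 12 peaks through 1 day alone. The counts and p-values of this set, here and in the next paragraphs, carry that selection. The genes named here were chosen after their values were seen. The smallest p belonged to GAS6, a ligand of TAM receptor kinases (chromosome 13, 114553087 to 114565427, minus strand), with 0 peaks in each day 4 library and 12, 9 and 15 at day 8, at least 8.45-fold (limma adjusted p = 6.7e-05). GAS6 had 21, 29 and 18 peaks at day 0 and ESYT2, a lipid transfer protein, had 15, 15 and 13. ESYT2 then had 0 in each day 4 library and 7, 10 and 7 at day 8 (limma adjusted p = 0.000753). Weaker signal was present at day 4, with 3, 4 and 10 clusters of any fold at GAS6 and 3, 4 and 3 at ESYT2.

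The higher loci given here and next are examples picked by the role of their gene, and no list of such genes was counted or tested. CACNB2, a subunit of the cardiac L-type calcium channel (chromosome 10, 18484965 to 18494494, plus strand), held 0 peaks in each day 0 and day 4 library and 8, 8 and 9 at day 8, at least 5.87-fold over day 4 (limma adjusted p = 0.000441). A second SLC8A1 locus (40528447 to 40545146) likewise went from 0 in each to 7, 7 and 12. RYR2, the calcium release channel of the sarcoplasmic reticulum, had 3 loci that rose, each with 0 peaks in every day 4 library and 15 to 18 over the day 8 libraries (limma adjusted p = 0.0028, 0.00758 and 0.0133). Elsewhere in RYR2, a region at 237766455 to 237766524 on the plus strand of chromosome 1 passed in all 6 libraries, with log2 folds of 8.42, 6.01 and 6.69 at day 4 and 6.08, 4.20 and 5.39 at day 8 (centred difference -2.11 ± 0.71, limma adjusted p = 0.2). CACNA1D, the pore of another L-type channel, went from 0 to 4, 4 and 5 peaks (limma adjusted p = 0.0215). CTNNA3, the catenin of the intercalated disc, went from 0, 0 and 1 to 9, 6 and 9 (3.05 ± 0.63, limma adjusted p = 0.0016).

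Other examples encode RNA-binding proteins, sarcomere proteins and a receptor. RBM24, a muscle splicing regulator, had 0, 1 and 1 peaks at day 4 and 9, 10 and 16 at day 8 (chromosome 6, 17285239 to 17293114, plus strand; 3.02 ± 0.56, limma adjusted p = 0.000753). RBFOX2, another splicing regulator, went from 1, 6 and 2 to 13, 13 and 14 (1.77 ± 0.55, limma adjusted p = 0.03). TIA1, an RNA-binding protein of stress granules, went from 0, 3 and 0 to 6, 3 and 7, numbers that touch at 3 (2.05 ± 0.61, limma adjusted p = 0.0252). NEBL, the Z-disc protein nebulette, had 0 peaks in each day 4 library and 7, 5 and 7 at day 8 at its first locus (limma adjusted p = 0.00172). ACTN2, the Z-disc alpha-actinin, went from 0 to 4, 2 and 6, and MYOM1, an M-band protein, from 0 to 5, 3 and 4 (limma adjusted p = 0.0402 and 0.032). ERBB4, the neuregulin receptor, had 2 such loci, with 20 and 16 peaks over the day 8 libraries and none at day 4 (limma adjusted p = 0.0016 and 0.00801).

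**Figure D5:**
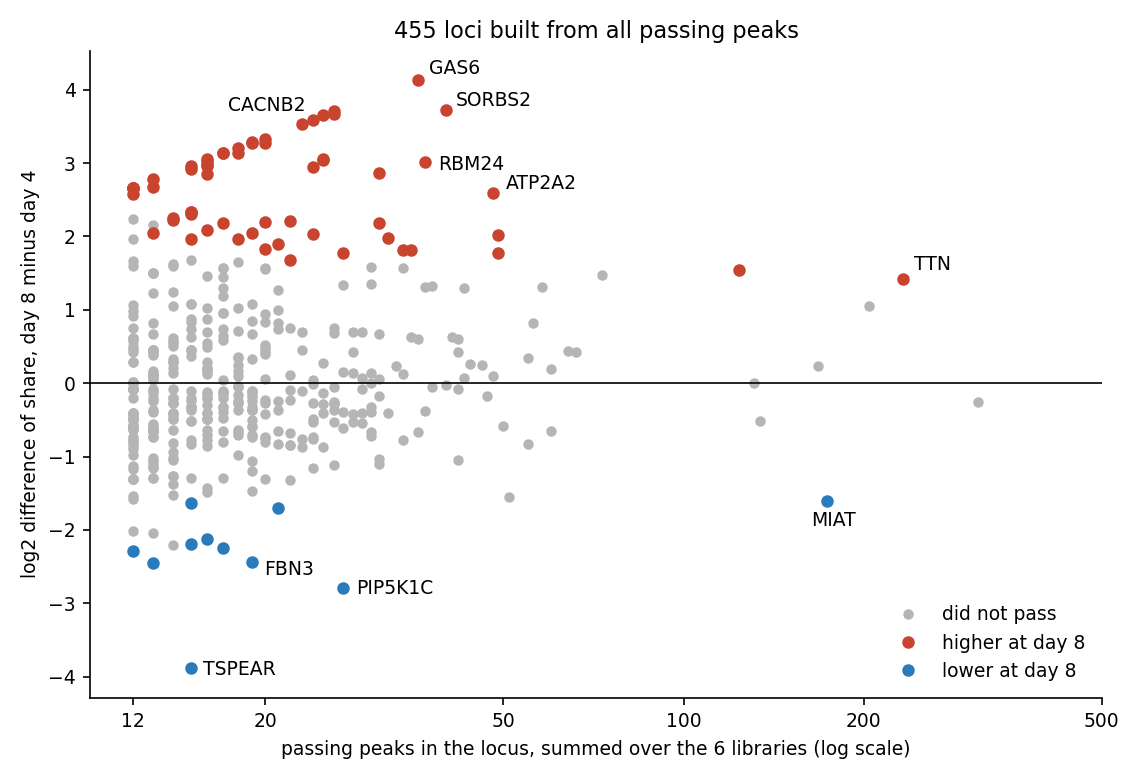
Log2 difference of share, day 8 minus day 4, for the 455 loci built from all passing peaks, against the number of passing peaks over the 6 libraries on a log axis. Higher loci number 61 and lower loci 11, and the upper row of red points holds loci with 0 peaks in every day 4 library, where the fitted difference depends on the pseudocount.

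In this wider set, loci that lost peaks by day 8 were fewer, while the loci of the day 0 list gave 8 higher and 12 lower. TSPEAR (chromosome 21, 45942711 to 45945585, minus strand) held 15, 13 and 11 peaks at day 0, 3, 6 and 6 at day 4 and 0 in each day 8 library, at least 7.10-fold lower than at day 4 (limma adjusted p = 0.00123). PIP5K1C, a lipid kinase of focal adhesions (chromosome 19, 3648723 to 3651746, minus strand), went from 4, 9 and 9 to 1, 0 and 4 (-2.79 ± 0.57, limma adjusted p = 0.0016), numbers that touch at 4. FBN3, a fibrillin of early development, went from 5, 5 and 6 to 1, 1 and 1 (-2.44 ± 0.58, limma adjusted p = 0.0057). NEO1, a netrin receptor, went from 5, 5 and 5 to 2, 1 and 3 (-1.71 ± 0.55, limma adjusted p = 0.0357). CADM1, a cell adhesion molecule, went from 4, 6 and 3 to 1, 0 and 3 (-2.25 ± 0.57, limma adjusted p = 0.00852), numbers that touch at 3.

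Single reproducible peaks with nothing at the other day were mostly day 8 peaks. Of the 1516 day 8 reproducible peaks that passed in 3 of 3 libraries, 195 had no cluster of any fold in any day 4 library. Over the whole lists, 12.4% of the 1576 day 8 peaks and 0.950% of the 947 day 4 peaks had no cluster at the other day. These shares are not adjusted for list length. Taking 1 per locus, the highest authors' log2 folds belonged to an unnamed site on chromosome 7 (99194439 to 99194527, plus strand, 7.31), ADGRD1, an adhesion receptor (chromosome 12, 131521754 to 131521791, plus strand, 6.95), and SORBS2 (186584328 to 186584370, 6.94). ECPAS, a proteasome adaptor (6.76), CORIN, the protease that processes natriuretic peptides in heart (chromosome 4, 47637060 to 47637176, minus strand, 6.65), and an unnamed site on chromosome 11 (6.42) followed. The ECPAS peak adjoined signal of both days, since the merged region around it (114149928 to 114150186) passed in all 6 libraries, with log2 folds of 5.87, 6.37 and 4.69 at day 4. Near the chromosome 7 site, a region at 99193728 to 99194265 passed in all 6 libraries. Its day 4 log2 folds were 5.29, 6.42 and 5.53. Near the ADGRD1 site, a region at 131521899 to 131521951 passed in 5 of the 6 libraries. Its day 4 log2 folds were 2.12, 5.89 and 4.44. The CORIN peak had log2 folds of 5.87, 6.68 and 7.40 in the day 8 libraries and passed in 0 of 3 day 0 libraries, while the SORBS2 peak passed in 3 of 3. Of the 891 day 4 peaks that passed in 3 of 3 libraries, 8 had no cluster at day 8, over 5 loci. They were led by a 10-nt peak in MIAT (27067342 to 27067351, 6.43), PIP5K1C (4.94) and an unnamed site on chromosome 16 (4.86). The 5 strongest peaks of each day passed in all 6 libraries, and MIAT was among them at both days, with different peaks. At day 4 it was 27068008 to 27068062 (9.55) and at day 8 27067370 to 27067543 (9.09). The first had log2 folds of 9.05, 10.4 and 8.74 at day 4 and 7.69, 8.03 and 7.66 at day 8. The second had 8.24, 9.10 and 8.08 at day 4 and 7.95, 9.71 and 9.16 at day 8.

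Few shared positions passed for a difference in enrichment over input. At 2193 regions with a cluster in all 6 libraries, the authors' log2 folds, centred per library, were compared by limma. None was higher at day 8 and 2 were lower (0.0912%), with 93 higher and 91 lower at an unadjusted p under 0.05. The day 8 minus day 4 difference was within 1 log2 unit at 80.5% of the regions. The 2 lower regions were unnamed, one on chromosome 1 (17067011 to 17067118, plus strand) and one on chromosome 18 (37035735 to 37035840, minus strand). The first had log2 folds of 6.87, 4.53 and 6.14 at day 4 and 3.50, 3.43 and 1.69 at day 8 (centred difference -3.27 ± 0.73, limma adjusted p = 0.0393). The second had 5.61, 6.42 and 5.69 at day 4 and 3.50, 3.14 and 3.27 at day 8 (-2.90 ± 0.66, limma adjusted p = 0.0393). Neither passed without day 4 replicate 1, day 4 replicate 3, day 8 replicate 2 or day 8 replicate 3 (limma adjusted p from 0.116 to 0.303). In simulated data this fit recovered 1.05% of 4-fold and 0% of 2-fold changes among 2193 regions, so a low count of calls says little. The named higher regions nearest to the threshold, TIA1 and ASPH, a hydroxylase gene whose products include junctin, had differences of 2.63 ± 0.67 and 2.54 ± 0.68 (limma adjusted p = 0.0853 and 0.0866). A region of QKI's own transcript (163994672 to 163994876) had log2 folds of 2.83, 4.74 and 4.29 at day 4 and 5.97, 5.64 and 8.20 at day 8 (2.36 ± 0.68, limma adjusted p = 0.144).

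By chromosome and strand, no unit passed in the main fit. Of 48 units, 0 were higher and 0 lower at day 8 by limma after adjustment, with 3 higher and 5 lower at an unadjusted p under 0.05. The nearest was the minus strand of chromosome 2, which carries TTN and SLC8A1. It held 3.23%, 4.30% and 4.25% of passing peaks at day 4 and 6.38%, 7.27% and 6.86% at day 8, shares that did not overlap (log2 difference 0.81 ± 0.14, limma adjusted p = 0.0627). Without the 10 fullest loci the difference was 0.73. Those loci include the longest TTN locus but not the other TTN loci or SLC8A1. With equal peak numbers 4 units passed as higher and 5 as lower, and this strand was among the higher (1.07, limma adjusted p = 0.00591). The plus strand of chromosome 22, which carries MIAT, held 1.78%, 1.05% and 1.63% at day 4 and 0.870%, 1.02% and 0.675% at day 8 (-0.78 ± 0.25, limma adjusted p = 0.198), and without the 10 fullest loci the difference was -0.06. It passed as lower with equal peak numbers (-0.87, limma adjusted p = 0.00755). The plus strand took 53.4% ± 0.875 of the passing peaks at day 4 and 52.0% ± 0.710 at day 8 (SD, n = 3; two-sided exact permutation p = 0.2, adjusted 0.667).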

How the data were processed

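The deposited data were lists of eCLIP clusters on hg19. Per the submitters' processing notes, cutadapt, STAR and SAMtools were used, and versions and the peak caller are not given in the sources used here. Cells were crosslinked at 400 mJ/cm2 and RNA was taken from 40 to 115 kDa, with a random-mer of 10 bases in the adapters, per the labels' protocols. The authors deposited for each cluster a log2 fold of IP over input and a −log10 p-value capped at 400. Each library had its own list, and each day 1 merged list of reproducible peaks, per the file headers. Read depth is unknown, and inputs entered only through the authors' folds. Intervals cover counting error only, treat peaks as independent and leave out the spread between libraries.

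Clusters with a log2 fold from 2 upwards and p no higher than 0.001 were called passing, compared by strand, and counted per region, per locus and per chromosome and strand. Counts plus 0.5, per 10000 passing peaks, were fitted on the log2 scale with limma 3.58.1 (R 4.3.3; lmFit, eBayes, Benjamini-Hochberg at 0.05), with a variance trend for loci and regions, after a test on simulated data. Chromosome units needed 12 passing peaks. Single values had exact permutation tests (SciPy 1.17.1). A ratio against a day with 0 peaks used a floor of 3 peaks over the day. Genes named by rule were the 12 loci with the smallest p per direction, the 3 fullest loci that did not pass, up to 6 regions per direction in the enrichment fit, and per day the 5 strongest and up to 6 day-specific reproducible peaks, 1 per locus. Alternatives were other thresholds, equal peak numbers, joining distances, scalings, pseudocounts, sets of loci, the replicate block and leaving out each library. The comparison, the members and the lists were chosen with earlier results of these data known. Gene lists and motif counts that need an hg19 annotation or genome were not used here. Some results are not reported here.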

Additional observations from a re-analysis of the deposited data

How the results depend on the processing

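The ratio of passing peaks, 1.42, was 0.758 when all listed clusters were counted. A reciprocal overlap of 50% gave 54.6% of the day 4 list and 32.7% of the day 8 list, and equal numbers gave 49.5% and 49.7%. Regions bound at 1 day alone, 526 at day 8 and 61 at day 4 at first, changed with the setting. With equal peak numbers they were 188 and 79 by the authors' fold and 352 and 139 by −log10 p. They were 283 and 14 when no cluster was allowed on the other day. Leaving out each library gave 538 to 1168 for day 8 and 71 to 367 for day 4. Loci higher at day 8, 16 at first, numbered 38 with equal peak numbers, 8 for the day 0 list, 2 with a pseudocount of 2, 5 of 34 with at least 10 reproducible peaks, 61 of 455 for all passing peaks, and 5 to 23 without single libraries. Lower loci, 1 at first, numbered 3 with equal numbers or all 9 libraries, 9 when centred, 0 by covered nucleotides or with a pseudocount of 2, 12 for the day 0 list, 11 for all passing peaks, and 0 to 3 without single libraries. The cause of these differences was not tested, apart from the smaller or larger sets of loci. In the enrichment fit, lower regions numbered 0 with length-weighted folds, without centring or at the 621 regions passing in all libraries, and 0 to 8 without single libraries. With equal peak numbers 4 chromosome units were higher and 5 lower. Of 174 alternatives for the 13 named loci that passed, 128 kept the call and 46 lost it. Of 18 for the 2 regions, 6 kept it and 12 lost it. Of 42 for the 3 loci that had not passed, 1 passed. No locus or region that had passed reversed. Among the loci that had not passed, some differences near 0 changed sign. With equal peak numbers the mitochondrial locus went from -0.27 to 0.20 and TPM1 from -0.03 to 0.45, and neither passed.

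Replicate numbers did not pair the samples consistently. Same-numbered libraries deviated with correlations of 0.34, -0.01 and -0.14 over the loci. The values were 0.29, -0.04 and 0.04 over the enrichment regions and 0.67, -0.13 and 0.11 over the chromosome units. Replicate 1 correlated best with its own number in each fit, replicate 3 only in the enrichment fit, and replicate 2 in none. With the replicate block, 10 loci were higher and 0 lower (limma, 2 lower at an unadjusted p under 0.05), 5 regions were higher and 7 lower in the enrichment fit, and 2 chromosome units were higher and 1 lower. Depth limits all counts of absent peaks, since a position without a passing peak may hold weaker signal. Peaks within a locus are not independent.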
